A study of Drosophila melanogaster with 3 samples.

Results

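The mitochondrial genome carried 419 of the 60497 FMRP sites in the authors' list, chosen here as all sites whose chromosome is the mitochondrial genome. Each site is a single base with a strand and a score. FMRP is the fly fragile X protein, an RNA-binding protein that regulates translation. Its RNA contacts were mapped in adult Drosophila melanogaster by enhanced CLIP, in which ultraviolet light links protein to RNA before the protein is pulled down. The list rests on 2 libraries of RNA pulled down with FMRP on FLAG beads and 1 library of input RNA of matched size. Each library came from a powder of 100 male and 100 female whole flies. The labels give intestinal progenitor cells as the cell type of the pull-downs and all cells as that of the input, and they state no genotype, tag or driver. The list gives no values per library, so depth is unknown and no site has a replicate error. Intervals below are exact Clopper-Pearson 95% intervals for shares, or binomial 95% intervals for medians. They cover counting error only and treat neighbouring sites as independent, which they are not.

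The mitochondrial genome of animals encodes core subunits of the respiratory chain and the rRNAs and tRNAs that the mitochondrial ribosome needs to make them. Both of its strands are transcribed as long RNAs that hold many genes, and the tRNAs lie between the other genes and are cut out, which frees the mRNAs and rRNAs. These RNAs are made and translated inside the organelle, and FMRP is best known from the cytoplasm.

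Almost every mitochondrial site lay inside a gene and on the strand of that gene. Of the 419 sites, 416 did so and 3 lay opposite COX1, and no site fell between genes or in the A+T-rich control region. The plus strand, which encodes most of the genes, held 297 sites and the minus strand 122. That is 70.9% on the plus strand (95% interval 66.3 to 75.2), against 46.2% in the rest of the list. The share in the rest is no expectation for this genome, whose strands differ in gene content. Protein-coding genes span 6887 nt on the plus strand and 4286 nt on the minus strand, and both rRNA genes lie on the minus strand. The gene table gives no strand, so strands were taken from the well-known gene order of the insect mitochondrial genome. The site list names no genome build. Moving all mitochondrial sites by 5 nt in either direction left 416 or 415 of them inside a gene on its strand, moving them by 10 nt left 409 or 411, moving them by 30 nt left 371 or 402, and moving them by 100 nt left 346 or 364. An offset of a few nt between the list and the gene table would thus go unseen in these counts, and positions within genes carry that uncertainty.

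Sites reached 32 of the 37 mitochondrial genes. All 22 tRNA genes, both rRNA genes and 8 of the 13 protein-coding genes had a site. The 5 genes without one, ND2, ND3, ND4, ND4L and ND6, all encode subunits of respiratory complex I. Protein-coding genes held 213 sites (50.8%, 95% interval 45.9 to 55.7). A further site, at base 4736, lies where the end of ATP6 overlaps the start of COX3 and was given to neither. tRNA genes held 161 sites (38.4%, 33.7 to 43.3) and rRNA genes 41 (9.79%, 7.11 to 13.0).

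Relative to length, tRNA genes were the most densely covered class. They held 11.1 sites per 100 nt over 1457 nt of gene, against 1.91 in the 11173 nt of protein-coding genes, a ratio of 5.80 (95% interval 4.69 to 7.15, conditional binomial). rRNA genes held 1.94 sites per 100 nt. The classes overlapped: the densities of single tRNA genes ran from 1.45 to 26.8 per 100 nt, and those of single protein-coding genes from 0 to 8.64. Fewer RNA molecules of a gene and fewer contacts per molecule cannot be told apart from site counts.

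**Figure D1:**
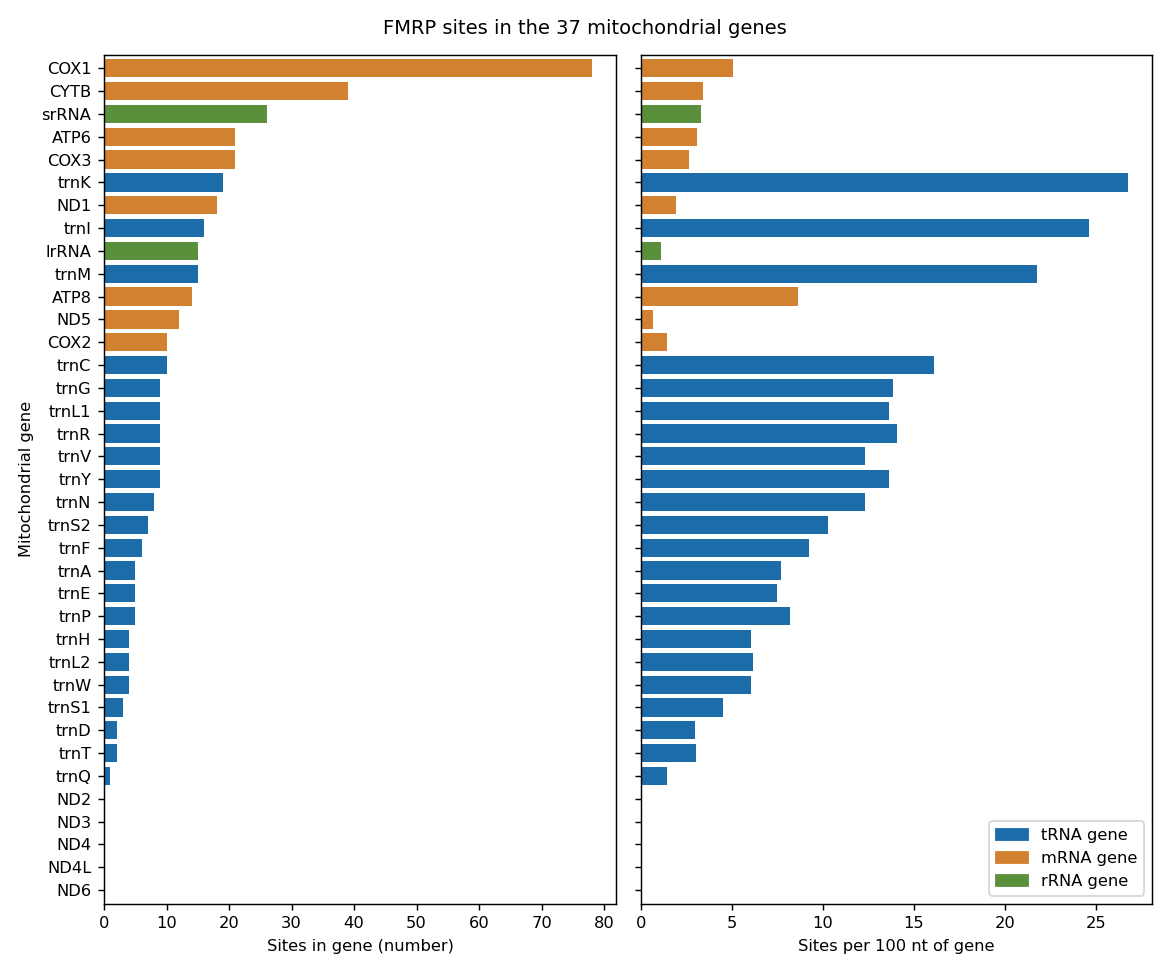
Number of FMRP sites in each of the 37 mitochondrial genes (left) and sites per 100 nt of gene (right), coloured by gene class and ordered by number. COX1 has the most sites (78), and trnK, trnI and trnM have the highest densities, 26.8, 24.6 and 21.7 per 100 nt.

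Scores were also highest in the tRNA genes. Scores were set by the authors, come without a unit, and served only to describe and rank sites. The median was 10.5 in tRNA genes (95% interval 7.78 to 16.2), 9.39 in rRNA genes (3.90 to 16.4) and 5.57 in protein-coding genes (3.42 to 7.47), against 2.77 in the rest of the list. The intervals of the tRNA and rRNA genes overlap. Those of the tRNA and protein-coding genes nearly meet, and they are too narrow because neighbouring sites are not independent. Within the whole list, the class medians stand at the percentiles 86.4, 84.2 and 71.2. By gene the classes overlapped: medians of single genes ran from 2.61 to 60.1 in tRNA genes, 5.03 to 12.1 in rRNA genes and 0.635 to 22.6 in protein-coding genes with sites.

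The top of the score range held many tRNA sites. Of the tRNA sites, 60 (37.3%, 95% interval 29.8 to 45.2) were among the highest-scoring 5% of the list, as were 5 of the 41 rRNA sites (12.2%) and 18 of the 213 protein-coding sites (8.45%), against 4.90% of the rest. The highest 1% held 26 tRNA sites (16.1%) and none of the sites in mitochondrial mRNA or rRNA genes. High shares were not particular to mitochondrial tRNA genes. Of the sites in nuclear tRNA genes, 41.3% were in the highest 5% of the list and 23.7% in the highest 1%. On the scaffold of ribosomal DNA, the shares were 45.2% and 12.7%. Sites in different genes share the same libraries, so these differences were not tested.

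**Figure D2:**
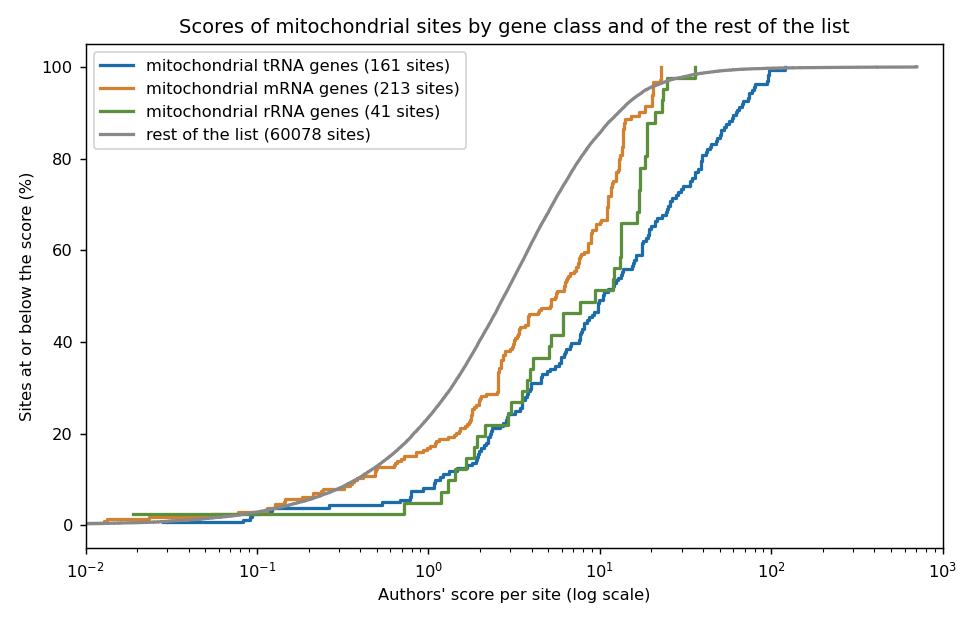
Cumulative share of sites (vertical axis, percent) by the authors' score (horizontal axis, log scale) for mitochondrial tRNA, mRNA and rRNA genes and for the rest of the list. The tRNA curve lies furthest to the right and reaches 121, whereas no mRNA site exceeds 22.7 and no rRNA site 36.0.

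The highest-scoring mitochondrial site was base 1434 in trnY, the gene of tRNA-Tyr, with a score of 121 at rank 140 of the list. Next came base 185 in trnM (tRNA-Met, 97.2, rank 181), base 15 in trnI (tRNA-Ile, 97.0, rank 184), base 186 in trnM (96.4, rank 185) and base 14 in trnI (96.1, rank 188). The sites of trnY were otherwise low: the median of its 9 sites was 2.84, and none of the other 8 exceeded 7.78. trnM had a median of 60.1 over 15 sites, of which 12 were in the highest-scoring 5% of the list and the other 3 scored between 1.97 and 7.89. It had scores of 79.5, 97.2, 96.4 and 94.3 on the neighbouring bases 184 to 187.

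The tRNA genes differed widely in their number of sites. trnK, the gene of tRNA-Lys, had the most with 19 sites between bases 3776 and 3820 and a median score of 25.6. trnI had 16 sites between bases 8 and 34 (median score 14.9), and trnM had 15 between bases 179 and 212. trnC (tRNA-Cys) had 10 sites. trnG, trnL1, trnR, trnV and trnY had 9 each, trnN 8, trnS2 7 and trnF 6. trnA, trnE and trnP had 5 each, and trnH, trnL2 and trnW had 4 each. trnS1 had 3, trnD and trnT had 2 each, and trnQ had 1. The lone site of trnQ (tRNA-Gln), base 157, scored 43.8. This gene lies between trnI and trnM, both rich in sites, but on the minus strand, whereas they are on the plus strand.

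Where a pair of tRNA genes serves the same amino acid, both members had sites, in different numbers. Of the tRNA-Leu genes, trnL1 (anticodon TAA in the gene table) had 9 sites with a median score of 33.8, and trnL2 (anticodon TAG) had 4 with 5.61. Of the tRNA-Ser genes, trnS2 (anticodon GCT) had 7 sites with a median score of 17.6, and trnS1 (anticodon TGA) had 3 with 4.55. These counts have no replicate error. The 14 tRNA genes on the plus strand held 113 sites with a median score of 17.5, and the 8 on the minus strand held 48 with a median of 3.93, at 12.2 and 9.11 sites per 100 nt.

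Along the tRNA genes, sites gathered in the 5′ and middle parts and left the 3′ part nearly empty. A typical tRNA folds into a cloverleaf whose D arm lies in the 5′ part, the anticodon arm in the middle and the T arm in the 3′ part. The arms of the single genes were not mapped here. Each gene was divided into 3 segments of equal length. The 5′ segment held 77 of 161 sites (47.8%, 95% interval 39.9 to 55.8), the middle segment 76 (47.2%, 39.3 to 55.2) and the 3′ segment 8 (4.97%, 2.17 to 9.56). By gene, 17 of 22 had a site in the 5′ segment, 18 in the middle segment and 5 in the 3′ segment. The highest-scoring site lay in the 5′ segment in 10 genes and in the middle segment in 12. Whether sites could be detected equally well along the whole of such short genes was not tested.

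The same bases recurred in different tRNA genes. Counted from 1 at the 5′ end, nt 9 was a site in 10 of the 22 genes (trnC, trnI, trnK, trnL1, trnL2, trnM, trnQ, trnR, trnS2 and trnY), with a median score of 37.2. The neighbouring nt 8 and nt 10 were sites in 4 genes each, with medians of 5.70 and 5.96. A broader stretch from nt 14 to nt 18 was a site in 8 to 12 genes at each base, with the most at nt 17, where scores were low (median 2.13). A further group centred on nt 33 and nt 34, which were sites in 10 and 11 genes, with median scores of 30.7 and 17.9.

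Between these groups lay bases with almost no site. No tRNA gene had a site in its first 6 nt, and nt 21 to 27 held 1 site, in trnG. The stretch from nt 7 to 20 held 77 sites in 17 genes, nt 28 to 38 held 53 in 17 genes, and nt 39 to 53 held 29 in 7 genes. Beyond nt 53 there was 1 site, the last base of trnN (base 6190), with a score of 0.792. These stretches were drawn after the positions were seen.

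**Figure D3:**
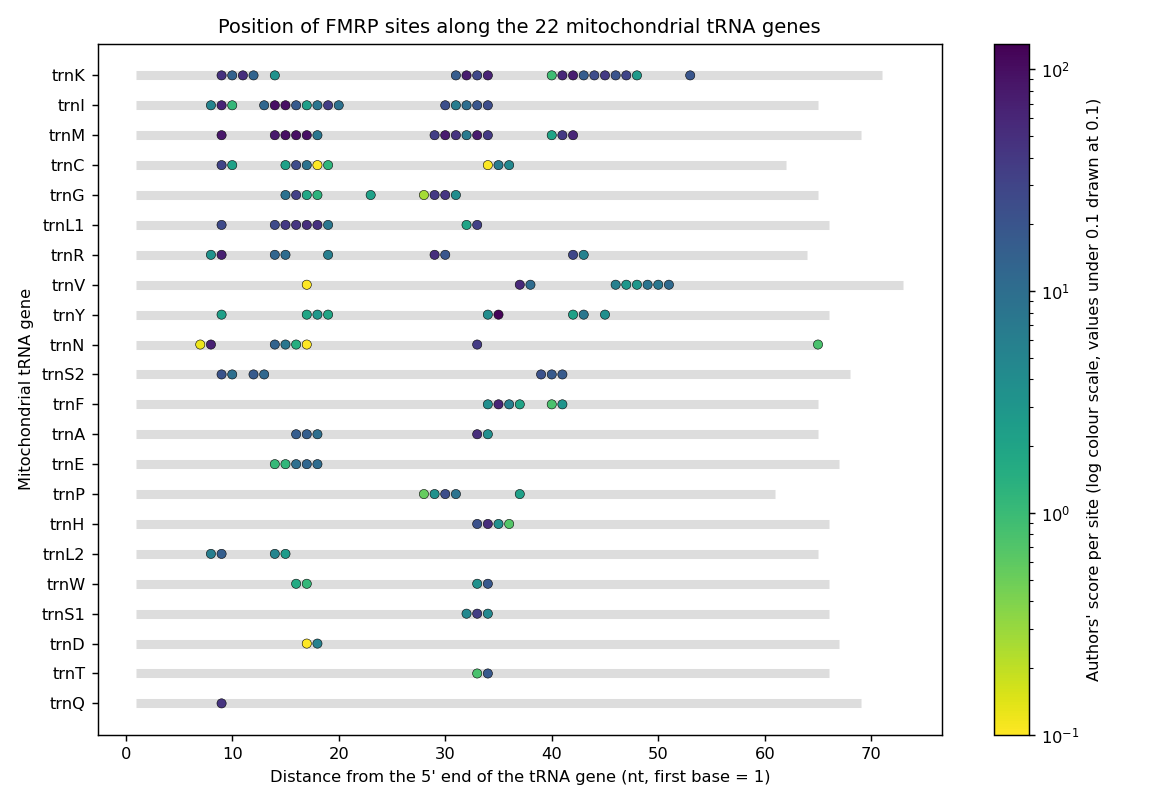
FMRP sites along the 22 mitochondrial tRNA genes, each row a gene drawn in grey from its 5′ end (horizontal axis, nt) and each point a site coloured by the authors' score on a log scale. Sites fall in columns at nt 9, nt 14 to 18 and nt 33 to 34, and the right-hand part of the rows is nearly empty.

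The genes differed in which groups they carried. In 13 genes both the 5′ stretch and the middle stretches had sites. trnD, trnE, trnL2 and trnQ had sites only in the 5′ stretch, and trnF, trnH, trnP, trnS1 and trnT only in the middle. trnK, trnM, trnR, trnV and trnY had sites in all of nt 7 to 20, nt 28 to 38 and nt 39 to 53. In trnK, base 3799 at nt 32 scored 74.5, base 3801 at nt 34 scored 65.2 and base 3809 at nt 42 scored 73.1. In trnR (tRNA-Arg), base 6070 at nt 9 scored 68.4, base 6090 at nt 29 scored 51.2 and base 6103 at nt 42 scored 28.6. In trnN (tRNA-Asn), base 6133 at nt 8 scored 67.9, and the preceding base scored 0.122.

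Nuclear tRNA genes, whose transcripts serve cytoplasmic translation, gave a different profile. In them 126 of 290 genes held a site, 709 sites in all. Each of the 126 had its sites on 1 strand, which was taken as the strand of the gene. This is automatic in genes with 1 site, and the orientation was not checked against an annotation. The 5′ and 3′ shares of nuclear genes below rest on it. The 5′ segment held 47.8% of sites in mitochondrial tRNA genes and 16.4% in nuclear ones, and the 3′ segment held 4.97% and 18.5%. The middle segment held 47.2% in mitochondrial and 65.2% in nuclear tRNA genes. The base nt 9 was a site in 10 of 22 mitochondrial and 10 of 126 nuclear tRNA genes with sites, and nt 34 in 11 of 22 and 36 of 126. Both bases were picked from the mitochondrial profile, so higher mitochondrial shares at them were partly built in. Mitochondrial tRNA genes also held more sites each, with a median of 6.5 against 4 in nuclear ones with sites. Median scores were 10.5 in mitochondrial and 12.9 in nuclear tRNA genes. The difference in profile was not tested, since nuclear tRNA genes have near-identical copies that can share reads, and some are longer (61 to 73 nt in mitochondrial and 71 to 186 nt in nuclear genes with sites).

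**Figure D4:**
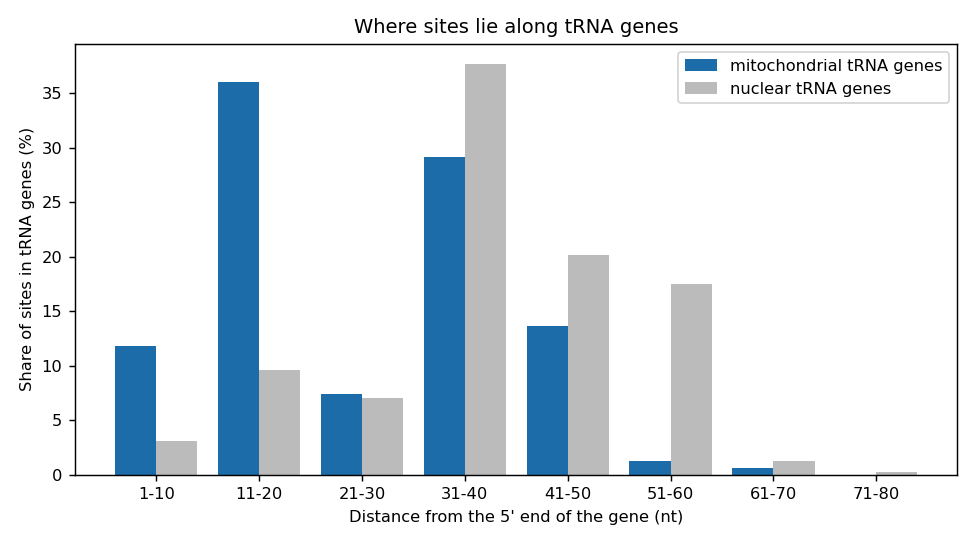
Share of sites (vertical axis, percent) in each 10-nt step from the 5′ end of the gene (horizontal axis) for mitochondrial and nuclear tRNA genes. From nt 11 to 20 lie 36.0% of mitochondrial and 9.59% of nuclear sites, and from nt 51 to 60 lie 1.24% and 17.5%.

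Among protein-coding genes, COX1 stood first. COX1 encodes the catalytic subunit of cytochrome c oxidase (complex IV) and held 78 sites between bases 1526 and 2942, 18.6% of all mitochondrial sites, with a median score of 6.34 and a highest score of 20.3 at base 2059. Its sites were spread along the gene, with 24, 28 and 26 in the 5′, middle and 3′ segments, and the longest stretch without a site between its first and last was 196 nt. COX2, which encodes the subunit that receives electrons from cytochrome c, had 10 sites between bases 3518 and 3661 and the lowest scores of any mitochondrial gene (median 0.635, highest 1.97). COX3, which encodes another core subunit of the same enzyme, had 21 sites, 7 in its 5′ segment, 14 in its 3′ segment and none between, with a highest score of 16.9 at base 5393.

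CYTB, which encodes the cytochrome b of complex III, came second with 39 sites between bases 10533 and 11289. Its 9 sites in the 5′ segment scored at most 2.98, and its highest score was 13.9 at base 11097. In the 6 neighbouring bases 10946 to 10951 no score exceeded 0.145. The ATP synthase genes were ATP6 with 21 sites (median score 3.80, highest 12.4) and ATP8 with 14 (median 10.6, highest 18.4). ATP8, at 162 nt the shortest protein-coding gene, had the highest density of the class at 8.64 sites per 100 nt. Of its 14 sites, 13 lay between bases 3993 and 4010.

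The 7 complex I genes together held 30 sites in 6189 nt, or 0.485 per 100 nt, against 3.43 for complex III, 3.62 for complex IV and 4.18 for complex V. All 30 were in ND1 and ND5. The genes differed within the complexes: ND1 had 1.92 sites per 100 nt and ND5 0.699, against 1.46 in COX2 of complex IV. All 4 protein-coding genes of the minus strand belong to complex I. They held 0.700 sites per 100 nt, against 2.66 in the 9 of the plus strand. The complex I genes of the plus strand, ND2, ND3 and ND6, held no site, so within complex I the minus strand was the denser one. Outside complex I the strands cannot be compared, since no protein-coding gene of the minus strand lies there. ND1 had 18 sites, all between bases 12262 and 12334, with a highest score of 13.5. ND5 had 12, of which 9 lay between bases 7528 and 7537 and included the highest score of any mitochondrial mRNA, 22.7. The other ND5 sites were bases 7573 and 7574, with 0.491 and 0.0134, and base 8124, the second base of the gene, with 2.66.

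The rRNA genes carried sites in their 5′ and 3′ segments and none in their middle segments. srRNA, the small ribosomal subunit RNA, had 26 sites. Of these, 11 lay between bases 14748 and 14763 in its 5′ segment, with a highest score of 18.3. The other 15 lay between bases 14205 and 14229 in its 3′ segment, with the class's highest score of 36.0 at base 14211. lrRNA, the large subunit RNA, had 15 sites: 2 in its 5′ segment at bases 14017 and 14018, with a highest score of 3.90, and 13 in its 3′ segment between bases 12848 and 12959, with a highest score of 18.9. Over both genes the 3′ segment held 28 of 41 sites (68.3%, 95% interval 51.9 to 81.9) and the middle segment 0 (95% interval up to 8.60%).

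**Figure D5:**
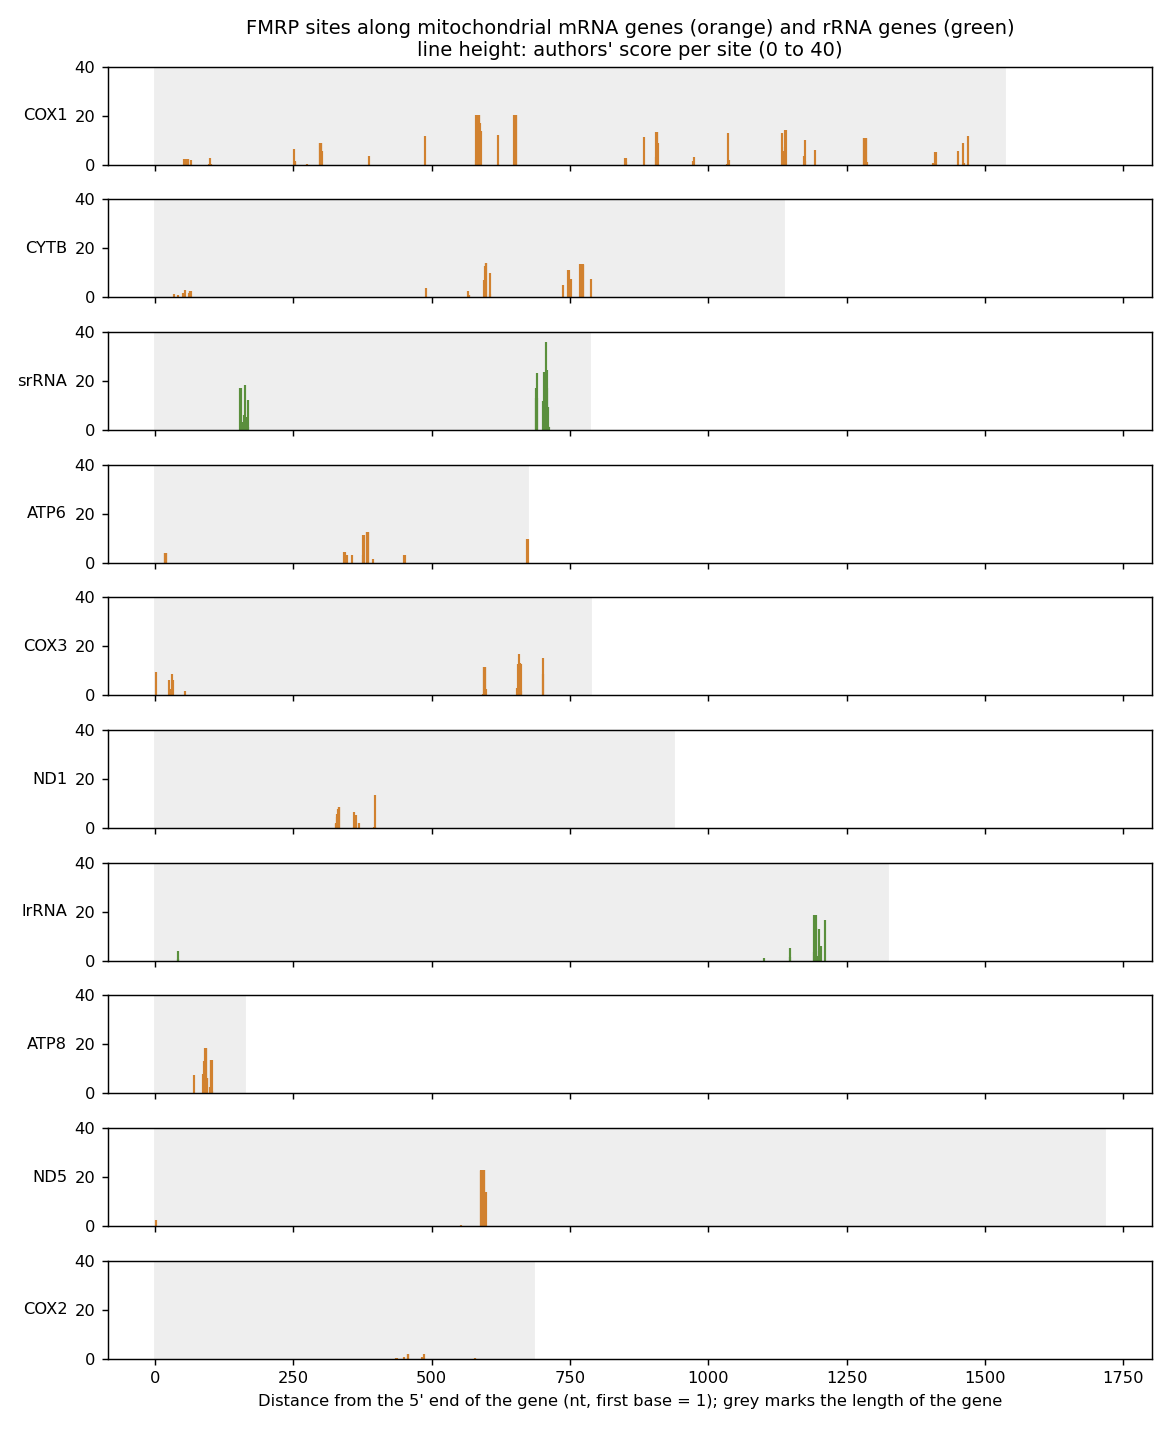
FMRP sites along the 8 mitochondrial mRNA genes (orange) and 2 rRNA genes (green) that have sites, by distance from the 5′ end (horizontal axis, nt), with line height giving the authors' score. Sites are spread along COX1 and confined to 1 or a few short stretches in ND1, ND5, ATP8, srRNA and lrRNA.

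Mitochondrial sites lay next to each other more often than sites elsewhere. Of the 419 sites, 63.7% (95% interval 58.9 to 68.3) were followed by another on the next base of the same strand, against 49.2% in the rest of the list and 60.6% in nuclear tRNA genes. The shares were 64.6% in mitochondrial tRNA genes, 62.1% in mRNA genes and 68.3% in rRNA genes, with overlapping intervals. These differences were not tested. Joining touching sites left 152 runs, of which 47 were single bases, and the longest was 9 nt, in trnK.

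None of the 37 mitochondrial genes was among the 1829 names on the authors' deposited target list, by symbol, locus tag or synonym. The rule that made targets from sites is not given in the sources used here. Among other genes with at least 5 sites in their span, 1567 of 1735 (90.3%) were on the list, against 0 of 25 mitochondrial genes. With at least 20 sites, 731 of 764 others (95.7%) were on it, against 0 of 5 mitochondrial genes, namely COX1, CYTB, srRNA, ATP6 and COX3. Counts for the other genes take both strands and include sites shared with overlapping genes. With at least 1 site, 1814 of 2672 others (67.9%) were on it, against 0 of 32 mitochondrial genes. Those others include the 126 nuclear tRNA genes with a site, of which 86 were on the list.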

How the data were processed

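The authors deposited a list of sites and a list of target gene names, neither split by library. The submitters' processing notes list STAR 2.7.3a, SAMtools 1.10, cutadapt 2.9, DESeq2 and UMI-tools. For their roles, the site caller, the build and any pooling of the pull-downs, the sources used here give nothing. The score is a value per site deposited by the authors with no stated unit, and the state column is 3 in every row. The authors' name for the site list contains INnorm, which may be read as input-normalised. Whether that refers to the score, and how the input library entered it, is not stated.

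Positions were counted from 1. Genes came from RefSeq's table for Release 6 of the Drosophila genome, and a site belonged to a gene when it lay in its span on its strand. Of the target names, 1753 matched a symbol, 34 a locus tag and 31 the synonym of 1 gene. The 11 others were unresolved, and 21 genes they could mean were left out of the comparison by number of sites. All mitochondrial genes are named, with the 10 that have most sites and the 5 highest-scoring sites described further. Members, lists and the rule were chosen with earlier results of these data known. No test was run, because no value per library was used. Gene assignment was tested on simulated sites planted with the same gene spans and strands. That check cannot reveal a wrong strand or an offset of positions. Analyses used Python 3.11.15, pandas 2.3.3 and scipy 1.17.1.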

Additional observations from a re-analysis of the deposited data

How the results depend on the processing

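Of 66 recomputed values, 61 stayed within the counting interval of the value reported, or for the number of genes with a site within 1.5 times it, and 5 did not. Ignoring strand or widening gene spans by 5 nt could reassign only the sites opposite COX1. The values for these settings were thus nearly fixed in advance. With only sites at or above the list's median score, mRNA genes held 45.7% of mitochondrial sites. With sites within 5 nt merged, rRNA genes held 7.08%. Taking the highest score of each touching run raised the median of tRNA genes to 24.6. Mitochondrial sites exceeded the rest of the list by 4.81 in median score but lay below sites in nuclear tRNA genes, with a difference of -5.33. Their excess of touching sites was 14.5 percentage points against the rest and 3.07 against nuclear tRNA genes, an alternative chosen after seeing the data. The cause of these changes was not tested. The ratio of tRNA to mRNA density was 5.40 with runs in place of sites. No paired analysis was possible because no file gives values per library, and for the same reason no library could be left out. Depth is unknown.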

Other observations

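Touching sites in mitochondrial mRNA genes often had almost the same score. Of 133 pairs of touching sites in these genes, 61 (45.9%, 95% interval 37.2 to 54.7) had scores within 1% of the larger one, against 2099 of 29580 pairs (7.10%) in the rest of the list. The share was 4 of 104 pairs (3.85%) in mitochondrial tRNA genes, 3 of 28 (10.7%) in mitochondrial rRNA genes and 16 of 430 (3.72%) in nuclear tRNA genes. In ND5, the 7 bases from 7531 to 7537 all scored between 22.6 and 22.7, and in COX1, 6 of the 10 sites between bases 2053 and 2063 scored within 1% of the maximum of 20.3, whereas the other 4 scored between 0.0127 and 16.9. This comparison was chosen after seeing the data.

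The 3 sites on the strand opposite a gene were neighbours, bases 1859 to 1861 on the minus strand within COX1, with scores of 0.577, 35.1 and 2.27. The middle one, base 1860, scored higher than any of the 78 sites of COX1 on its own strand, whose maximum was 20.3. The same base was also a site on the plus strand, with a score of 3.42, and was the only COX1 site of that strand between bases 1775 and 1962.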
